A study of Mus musculus with 12 samples.

Results

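The genes described here are the vascular endothelial growth factor (VEGF) ligands Vegfa, Vegfb, Vegfc and Pgf, their tyrosine kinase receptors Flt1, Kdr and Flt4, the co-receptors Nrp1 and Nrp2, and the lymphatic and liver sinusoidal marker Lyve1, in mouse liver. They were taken as every probe whose symbol in the platform's table was one of these names. All 10 genes had a probe, and Nrp1 and Nrp2 had 2 each, which gave 12 of 26423 probes and 10 of 19084 named genes. Liver RNA of male C57BL/6 mice was hybridised to 12 single-colour arrays, 3 for each of 4 groups of 6 mice. PTFC mice ate the high-fat diet for 24 weeks, per the sample titles, with pure total flavonoids from Citrus by gavage for 18 weeks at a daily dose of 50 mg per kg. The protocol names 6 weeks of that diet followed by the extract and does not give the diet of the later weeks. HFD24 mice ate the high-fat diet for 24 weeks, HFD16 mice for 16 weeks, and ND mice a normal diet for 24 weeks, all with saline in place of the extract. The high-fat diet held 36.1% fat, with 10% lard and 2% cholesterol added, and the normal diet 12.3% fat. PTFC and HFD24 mice were 31 to 33 weeks old, HFD16 mice 23 to 25 and ND mice 30 to 33, so diet length and age cannot be told apart wherever HFD16 is compared. All groups were fasted for 12 h, and none was given the extract on the normal diet, so its action outside the high-fat diet was not measured. The labels do not say that each array came from a separate mouse, and the p-values then reflect only how far these samples differ, a spread that may be technical. In the study's title, VEGF-C, which Vegfc encodes, is predicted to be the extract's key target.

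VEGF ligands are secreted dimers that bind receptor tyrosine kinases on endothelial cells. VEGF-A acts mainly through VEGFR-2, encoded by Kdr, and drives the growth and permeability of blood vessels, while VEGF-B and placental growth factor bind VEGFR-1, encoded by Flt1, which holds ligand with high affinity but signals weakly. VEGF-C binds VEGFR-3, encoded by Flt4, and directs lymphatic vessel growth. The neuropilins bind both VEGFs and class 3 semaphorins. In liver, hepatocytes are a main source of VEGF-A, and the sinusoidal endothelium, whose openings depend on it, carries the VEGF receptors and the hyaluronan receptor LYVE-1, which lymphatic endothelium and some tissue macrophages carry as well.

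The DNA just upstream of the start is shown for the 4 VEGF system genes that passed a test in at least one comparison below: Vegfc, the ligand that was higher on the high-fat diet, Vegfa, the ligand that was lower, and the neuropilin genes Nrp1 and Nrp2, which went opposite ways. The windows are the 250 bases before the annotated start, from RefSeq on GRCm38.p6, written 5′ to 3′ on the gene's strand. They lie at chr8:54077282-54077531 (plus strand) for Vegfc, chr17:46032378-46032627 (minus strand) for the upstream start of Vegfa, chr8:128358823-128359072 (plus strand) for Nrp1 and chr1:62703067-62703316 (plus strand) for Nrp2. Capitals mark GGGCGG, the GC box bound by Sp1-type factors, and ACGTG or GCGTG, the cores of hypoxia response elements, read on both strands.
Vegfc: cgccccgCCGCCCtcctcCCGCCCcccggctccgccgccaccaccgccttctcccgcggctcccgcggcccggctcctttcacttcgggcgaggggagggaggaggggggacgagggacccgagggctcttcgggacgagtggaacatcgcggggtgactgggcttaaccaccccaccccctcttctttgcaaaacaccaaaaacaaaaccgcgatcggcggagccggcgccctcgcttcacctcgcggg
Vegfa: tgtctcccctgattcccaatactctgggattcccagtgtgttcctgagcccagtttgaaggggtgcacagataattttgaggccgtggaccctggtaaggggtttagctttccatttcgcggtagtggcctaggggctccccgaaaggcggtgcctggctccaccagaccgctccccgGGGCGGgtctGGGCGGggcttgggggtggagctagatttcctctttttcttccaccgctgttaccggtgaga
Nrp1: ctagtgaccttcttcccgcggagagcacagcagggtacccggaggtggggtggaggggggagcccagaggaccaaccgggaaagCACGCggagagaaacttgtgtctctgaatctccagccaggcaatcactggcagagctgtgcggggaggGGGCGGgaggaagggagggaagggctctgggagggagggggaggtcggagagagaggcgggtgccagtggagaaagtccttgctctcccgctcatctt
Nrp2: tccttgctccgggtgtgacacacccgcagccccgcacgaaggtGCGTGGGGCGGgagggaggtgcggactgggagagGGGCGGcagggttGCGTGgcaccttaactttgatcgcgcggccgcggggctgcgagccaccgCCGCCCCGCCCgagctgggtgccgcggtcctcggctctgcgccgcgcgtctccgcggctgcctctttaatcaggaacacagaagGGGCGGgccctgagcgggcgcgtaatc
Vegfc holds 2 GC boxes and no hypoxia core in this window, and the upstream start of Vegfa likewise holds 2 and no hypoxia core. Nrp1 holds 1 GC box and 1 GCGTG, and Nrp2 holds 5 GC boxes and 2 GCGTG, some of the boxes overlapping each other or joined to a hypoxia core. A second Vegfa window, before a start inside the gene, held 1 ACGTG, 1 GCGTG and 1 GC box. Over all 32851 windows of the table, 32.7% held a GC box, 28.2% held GCGTG and 16.6% held ACGTG. These are matches of letters in a short window and show no binding.

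Each array's values stood on a scale of their own. The deposited intensities had medians from 249 to 408, and each array's values were whole multiples of a step that averaged 0.947 ± 0.0872 in PTFC, 0.976 ± 0.137 in HFD24, 0.921 ± 0.213 in HFD16 and 1.31 ± 0.133 in ND (SD, n = 3). The step thus moved with the ND group, at 1.23 to 1.46 in ND and at most 1.12 on any other array. With it as a covariate, no member probe passed in a comparison with ND, and the values are given beside the calls it ended. Because the step nearly coincides with the ND group, that fit has little power in comparisons with ND. A call lost there does not show that the difference is absent. Levels below are log2(intensity + 1) after quantile normalization over the 12 arrays, and differences are on that scale. The 1 added to each intensity slightly lowers differences of the dimmest probes. Normalization moved differences either way. In HFD24 against ND, Pgf stood at -0.18 with it and -0.52 without, and Lyve1 at 3.03 with it and 2.89 without. A probe passed at a limma adjusted p under 0.05 over all probes. In whole tissue, fewer cells of a type and less RNA per cell cannot be told apart.

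**Figure D1:**
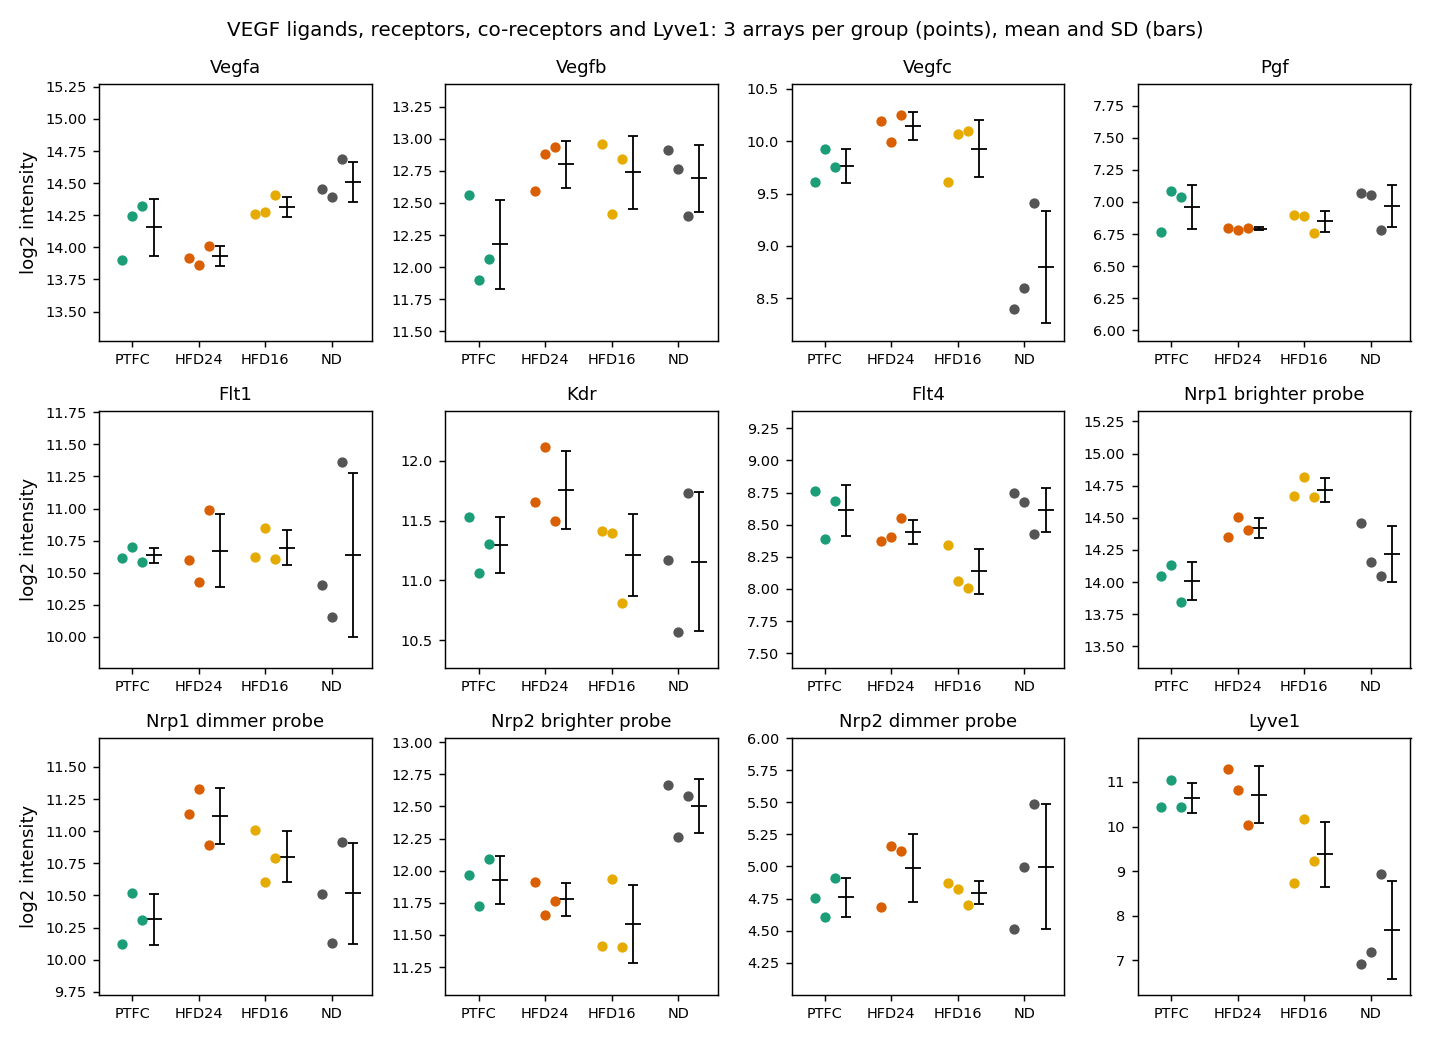
Normalized log2 intensity of the 12 probes of the VEGF system and Lyve1, with the groups PTFC, HFD24, HFD16 and ND from left to right. Points are the 3 arrays of a group and bars the mean ± SD; the axes of the panels start at different levels. Vegfc and Lyve1 are lowest in ND, and the brighter Nrp2 probe is highest there.

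Counted over the 12 probes, calls were most frequent in the comparisons of HFD24 and HFD16 with ND, as they were over all probes. In HFD24 against ND 4 passed, where 16.5% of all probes did. Of these, 2 rose (Vegfc and Lyve1, with 8.50% of all probes) and 2 fell (Vegfa and Nrp2, with 7.96%), and 4 had arrays that did not overlap, as 32.5% of all probes had. In HFD16 against ND 4 passed against 16.3% of all probes, 3 of them higher (8.64%) and 1 lower (7.69%), and 4 did not overlap (34.6%). In these comparisons 4 of 12 is above the share of all probes called and close to the share that did not overlap. The members were chosen with earlier results of these data known, and Nrp1 and Nrp2 have 2 probes each. Whether the count exceeds that of other probes was therefore not tested. In HFD24 against HFD16 limma called 0 of 12, where 0.0227% of all probes, or 6, passed. At an unadjusted p under 0.05 there were 2, Vegfa (-0.38) and Lyve1 (1.33), with 2569 (9.72%) of all probes, and 4 of 12 did not overlap (16.2%). In PTFC against HFD24 1 passed (5.78%), which fell (2.71%), and 4 did not overlap (30.9%, higher and lower together). These were Vegfb, Vegfc and both Nrp1 probes, each lower in PTFC. The share of all probes that were lower without overlap is not given here. In PTFC against ND 1 passed (1.75%), which rose (0.727%), and 4 did not overlap (20.6%). HFD24, HFD16 and PTFC were set against the same ND arrays, and PTFC against the HFD24 arrays that were also set against ND.

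**Figure D2:**
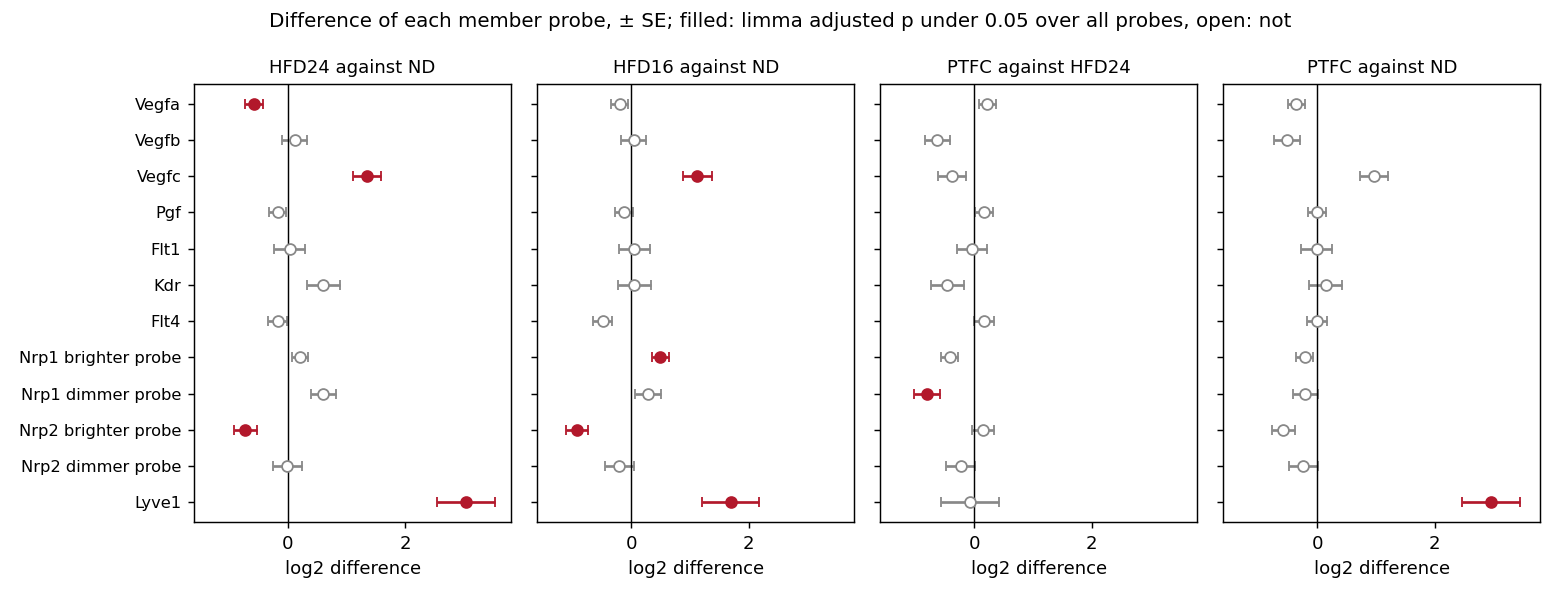
Log2 difference of each probe (horizontal axis) in 4 comparisons, with bars of 1 SE from the limma fit. Filled points passed at an adjusted p under 0.05 over all probes and open points did not: 4 against ND in HFD24 and in HFD16, 1 in PTFC against HFD24 and 1 in PTFC against ND.

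Vegfc, the lymphatic growth factor, was higher in both high-fat diet groups than in ND. Its level was 9.61, 9.93 and 9.75 in the PTFC arrays, 10.19, 10.00 and 10.25 in HFD24, 9.61, 10.07 and 10.10 in HFD16, and 8.39, 8.60 and 9.40 in ND. No array of the other 3 groups was as low as the highest ND array, which was replicate 3, while HFD24 overlapped with HFD16 and HFD16 with PTFC, its neighbours in the order of means. ND replicate 3 was also the highest ND array for Vegfa, Flt1, Kdr, Lyve1 and the dimmer Nrp1 and Nrp2 probes. It was the lowest ND array for Vegfb, Pgf, Flt4 and the brighter Nrp1 probe. It had the highest ND mean of every gene list described below, hepatocyte and bile duct genes included, except the VEGF pathway partners. The HFD24 mean of Vegfc exceeded that of ND by 2.55-fold (log2 1.35 ± 0.24, SE, n = 3 arrays per group, limma adjusted p = 0.00286). The HFD16 mean exceeded it by 2.19-fold (log2 1.13 ± 0.24, limma adjusted p = 0.00953). With the array scaling step as a covariate both calls ended, at 0.98 (adjusted p = 0.116) for HFD24 and 0.70 (0.371) for HFD16. Without ND replicate 1 the HFD16 difference was 0.93 (limma adjusted p = 0.0503).

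With the extract, Vegfc did not pass against HFD24. All 3 PTFC arrays lay under all 3 HFD24 arrays, with a mean difference of -0.38 ± 0.24 and a 95% interval from -0.90 to 0.13 (limma adjusted p = 0.355). On the deposited scale, with no normalization, the intensities were 886, 1032 and 978 in PTFC and 1028, 1033 and 1275 in HFD24, and they overlapped, with a difference of -0.20 (adjusted p = 0.565). Against ND, Vegfc was 0.97 ± 0.24 higher in PTFC, with no overlap of arrays and a limma adjusted p of 0.0602. With the scaling step as a covariate the difference was 0.57 (0.563). It passed on the deposited scale (1.05, adjusted p = 0.042), with the dimmest 25% of probes left out (0.0489), without ND replicate 3 (1.27, 0.0084) and without HFD16 replicate 1 (0.96, 0.0466).

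Vegfa, the main ligand of blood vessels, went the other way at 24 weeks. It read 13.90, 14.24 and 14.32 in PTFC, 13.92, 13.86 and 14.01 in HFD24, 14.26, 14.27 and 14.41 in HFD16 and 14.45, 14.39 and 14.69 in ND. The HFD24 arrays were the lowest and tightest set, and PTFC replicate 1 lay among them while the other PTFC arrays lay above. In the order ND, HFD16, PTFC, HFD24, each group overlapped with the next. Vegfa was 1.49-fold lower in HFD24 than in ND (log2 -0.58 ± 0.15, limma adjusted p = 0.0176). HFD16 stood at -0.20 against ND (limma adjusted p = 0.378), PTFC at 0.22 against HFD24 (0.376) and at -0.36 against ND (0.251). The HFD24 call ended with each array centred on its median (-0.43, adjusted p = 0.189), with the scaling step as a covariate (-0.60, 0.137), without ND replicate 1 (0.0507), without HFD24 replicate 1 (0.0564) and without HFD24 replicate 2 (0.0503).

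Vegfb, a ligand of VEGFR-1 linked to fatty acid handling, was lowest with the extract without passing the test. The PTFC arrays read 12.56, 11.90 and 12.07, against 12.59, 12.88 and 12.93 in HFD24, 12.96, 12.42 and 12.84 in HFD16 and 12.91, 12.76 and 12.40 in ND. PTFC replicates 2 and 3 were the lowest of the 12 arrays, and PTFC replicate 1 came within the range of HFD16 and ND. The difference of PTFC from HFD24 was -0.63 ± 0.22 (limma adjusted p = 0.0968), and it passed only with median centring (-0.93, adjusted p = 0.0254) among the settings tried. Pgf, which encodes placental growth factor, stayed between 6.76 and 7.09 on all 12 arrays. Its largest difference was -0.18 ± 0.15, for HFD24 against ND (limma adjusted p = 0.45), and the group means of Pgf spanned 0.18 on the log2 scale. On the deposited scale, where dim probes moved with the array, Pgf had 139, 154 and 167 in PTFC and 74.1, 109 and 109 in HFD24. The difference of Pgf there was 0.67 (adjusted p = 0.0698), and HFD24 and HFD16 each stood at -0.52 against ND (0.126 and 0.112).

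The 3 receptor tyrosine kinases passed in none of the 5 comparisons by limma, and 1 of these 15 differences, Flt4 in HFD16 against ND, had an unadjusted p under 0.05, as 22.7% of all probes did over the 5 comparisons. Flt1 read 10.62, 10.70 and 10.58 in PTFC, 10.60, 10.43 and 10.99 in HFD24, 10.63, 10.85 and 10.60 in HFD16 and 10.40, 10.16 and 11.36 in ND. Its group means lay within 0.06 of each other, while the ND arrays alone held both the lowest and the highest of the 12 values. The 95% interval of HFD24 against ND for Flt1 ran from -0.53 to 0.60. Kdr, the main signalling receptor, read 11.53, 11.06 and 11.30 in PTFC, 11.65, 12.12 and 11.50 in HFD24, 11.42, 11.40 and 10.81 in HFD16 and 11.17, 10.57 and 11.73 in ND. Every HFD24 array exceeded every HFD16 array, and ND replicate 3 stood with the HFD24 arrays. Kdr differed by 0.60 ± 0.28 between HFD24 and ND (limma adjusted p = 0.162), by 0.55 between HFD24 and HFD16 (0.55) and by -0.46 between PTFC and HFD24 (0.343). Without ND replicate 3 the first of these was 0.88 and passed (limma adjusted p = 0.0308).

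Flt4, the receptor of VEGF-C, was lowest in HFD16. It read 8.76, 8.39 and 8.68 in PTFC, 8.38, 8.40 and 8.55 in HFD24, 8.34, 8.06 and 8.01 in HFD16 and 8.75, 8.68 and 8.42 in ND. The HFD16 arrays were the lowest and overlapped with neither ND nor HFD24. The differences of Flt4 were -0.17 ± 0.16 for HFD24 against ND (limma adjusted p = 0.501), -0.48 ± 0.16 for HFD16 against ND (0.0607) and 0.17 for PTFC against HFD24 (0.571). HFD16 against ND passed on the deposited scale (-0.72, adjusted p = 0.0482) and without ND replicate 3 (-0.58, 0.0291). Also on the deposited scale, Flt4 stood at -0.36 in HFD24 against ND (0.275) and at 0.52 in PTFC against HFD24 (0.138). With the scaling step, HFD16 against ND was -0.33 (0.561) and HFD24 against ND -0.048 (0.933).

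The neuropilins, which lack a kinase of their own, parted. The brighter Nrp2 probe read 11.97, 11.72 and 12.09 in PTFC, 11.91, 11.66 and 11.76 in HFD24, 11.42, 11.94 and 11.40 in HFD16 and 12.66, 12.26 and 12.58 in ND. Every ND array exceeded the 9 arrays of the other groups, which overlapped with their neighbours in the order PTFC, HFD24, HFD16. Nrp2, a co-receptor of VEGFR-3, was 1.89-fold lower in HFD16 than in ND (log2 -0.92 ± 0.19, limma adjusted p = 0.00871) and 1.65-fold lower in HFD24 than in ND (log2 -0.72 ± 0.19, 0.0212). In PTFC it was -0.58 ± 0.19 against ND (0.148) and 0.15 against HFD24 (0.682). Both calls ended with the scaling step as a covariate, although the differences did not shrink. They were then -1.09 for HFD16 (adjusted p = 0.128) and -0.87 for HFD24 (0.103). The HFD24 call also ended with median centring (-0.54, 0.108), without ND replicate 1 (0.0963) and without HFD24 replicate 2 (0.063) or 3 (0.0517). The other Nrp2 probe lay at 4.52 to 5.49, near the floor of the arrays, where 10.1% of probes had the same or a lower mean, and it passed nowhere.

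Nrp1, a co-receptor of VEGFR-2 and a semaphorin receptor, had its highest group means on the high-fat diet alone and its lowest with the extract, on both of its probes. The brighter probe read 14.05, 14.13 and 13.85 in PTFC, 14.35, 14.51 and 14.41 in HFD24, 14.67, 14.82 and 14.66 in HFD16 and 14.46, 14.15 and 14.04 in ND. Every PTFC array lay under every HFD24 array, and these under every HFD16 array. The dimmer probe read 10.12, 10.52 and 10.31 in PTFC, 11.13, 11.33 and 10.89 in HFD24, 11.01, 10.61 and 10.79 in HFD16 and 10.51, 10.13 and 10.92 in ND. On this probe, too, PTFC and HFD24 did not overlap, although each group overlapped with the next in the order HFD24, HFD16, ND, PTFC.

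The dimmer Nrp1 probe was 1.75-fold lower in PTFC than in HFD24 (log2 -0.80 ± 0.22, limma adjusted p = 0.0459), and the brighter probe stood at -0.42 ± 0.14 (0.0989). The call on the dimmer probe was near the threshold. Over 20 other settings its difference lay between -1.04 and -0.67 and its adjusted p between 0.0208 and 0.172, and it was lost without any PTFC or HFD24 array (0.0606 to 0.172), without ND replicate 1 (0.06) or HFD16 replicate 3 (0.0666), and without a trend in the prior variance (0.0522). With the replicate number as a block, its adjusted p was 0.0813. The brighter probe passed with median centring (-0.71, 0.0349). Against ND, the brighter probe was 1.41-fold higher in HFD16 (log2 0.50 ± 0.14, limma adjusted p = 0.0334). That call ended on the deposited scale (0.0503), with only those groups in the fit (0.073) and with the scaling step (0.52, 0.314). It also ended without ND replicate 2 (0.102) or 3 (0.0632) or any HFD16 array (0.0586 to 0.0984). In HFD24 against ND, the brighter probe stood at 0.20 (0.355) and the dimmer at 0.60 (0.0733). The difference of the dimmer probe passed without ND replicate 3 (0.80, 0.0155) and with median centring (0.77, 0.0474).

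Lyve1 had the widest range of the 12 probes. It read 10.44, 11.04 and 10.44 in PTFC, 11.29, 10.82 and 10.03 in HFD24, 8.73, 10.17 and 9.23 in HFD16 and 6.93, 7.19 and 8.94 in ND. PTFC and HFD24 shared one range, ND replicates 1 and 2 were far below it, and HFD16 replicate 1 fell under ND replicate 3. In HFD24, Lyve1 exceeded ND by 8.16-fold (log2 3.03 ± 0.49, limma adjusted p = 0.00184), and 0.265% of all probes rose further. In PTFC it exceeded ND by 7.75-fold (log2 2.95 ± 0.49, limma adjusted p = 0.0126), where 0.0454% of probes rose further. Between PTFC and HFD24 the difference was -0.07 ± 0.49 (limma adjusted p = 0.948), and its 95% interval, from -1.13 to 0.98, still held differences larger than the one called for Vegfa.

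In HFD16, Lyve1 exceeded ND by 3.24-fold (log2 1.69 ± 0.49, limma adjusted p = 0.0333), with arrays that overlapped. That call ended with only those groups in the fit (0.0732), with the scaling step (0.75, 0.64), and without ND replicate 1 (0.142) or 2 (0.115) or HFD16 replicate 2 (0.119) or 3 (0.0758). The HFD24 call held without each array in turn, at 2.67 to 3.65, and ended with the scaling step as a covariate (2.22, adjusted p = 0.0883). PTFC against ND ended with the scaling step (2.08, 0.265), without ND replicate 1 (2.59, 0.0675) and without PTFC replicate 3 (3.07, 0.0558).

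A ratio of genes within an array is free of any one factor that scales the whole array. The arrays also differed in the shape of their values, with 25th percentiles from 48.5 to 95.8 and 75th percentiles from 2002 to 2305, so a ratio of probes of unequal brightness can still depend on the scaling. As a log2 ratio on the deposited scale, Vegfc over Vegfa was -4.11, -4.33 and -4.42 in PTFC, -3.85, -3.81 and -3.70 in HFD24, -4.83, -4.13 and -4.40 in HFD16 and -5.91, -5.65 and -5.45 in ND. The ND arrays were lowest and the HFD24 arrays highest, with no overlap between HFD24 and any other group. Against ND, the ratio was higher by 3.69-fold in HFD24, 2.33-fold in HFD16 and 2.60-fold in PTFC, and against HFD24 it was lower by 1.42-fold in PTFC. Each of these had an exact two-sided permutation p of 0.1, the smallest that 3 against 3 arrays allow. Vegfc over Vegfb was higher than in ND by 2.24-fold in HFD24 and 2.88-fold in PTFC, without overlap (exact permutation p = 0.1). It overlapped between HFD16 and ND (1.93-fold higher, 0.2). Between PTFC and HFD24 it overlapped too and went the other way, 1.29-fold higher in PTFC (0.3).

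Nrp1 over Nrp2, at their brighter probes, was 2.05, 2.41 and 1.77 in PTFC, 2.48, 2.83 and 2.58 in HFD24, 3.31, 2.79 and 3.26 in HFD16 and 1.82, 1.90 and 1.47 in ND. The HFD24 arrays lay wholly above the ND arrays, by 1.87-fold, and the PTFC arrays wholly under the HFD24 arrays, by 1.47-fold, while PTFC and ND overlapped. HFD16 exceeded ND by 2.63-fold. Flt4 over Kdr, the receptor of VEGF-C over the main receptor of VEGF-A, overlapped between the high-fat diet groups and ND. It was 1.86-fold higher in PTFC than in HFD24 with no overlap. From normalized values that last ratio was 1.54-fold higher, again with no overlap. These non-overlapping ratios carried an exact two-sided permutation p of 0.1 as well. A ratio shows unequal change of its members and not which of them changed.

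Lyve1, Vegfc and Nrp2 were also set against endothelial genes of the same array, as was Kdr. Over the mean of 19 pan-endothelial markers, Lyve1 was higher against ND by 5.31-fold in HFD24 and 5.41-fold in PTFC, while in HFD16 it overlapped with ND (2.17-fold, exact permutation p = 0.2). Vegfc was higher against ND by 1.70-fold in HFD24 and 1.46-fold in PTFC, and neither overlapped. Nrp2 was 2.33-fold lower in HFD24, 2.42-fold lower in HFD16 and 2.04-fold lower in PTFC than in ND on this scale, again without overlap. Kdr over the same mean overlapped in each of the 5 comparisons. Lyve1 over Stab2, a scavenger receptor of the sinusoidal endothelium, was 3.65-fold higher in HFD24 and 3.74-fold higher in PTFC than in ND, and in HFD16 it overlapped with ND (1.78-fold, exact permutation p = 0.3). Vegfc over the pan-endothelial mean was 1.16-fold lower in PTFC than in HFD24 without overlap, but the arrays overlapped when normalized values were used. The exact permutation p was 0.1 wherever arrays did not overlap.

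Genes that process, relay or regulate VEGF signals moved in part. With the scaling step as a covariate, none of the calls against ND given below for the VEGF pathway, semaphorin, angiopoietin and hypoxia lists was kept except that of Adm in HFD24. Of 18 measured pathway partners, 3 rose and 1 fell in HFD24 against ND, and the list's median difference was -0.02. Over all genes, each at its brightest probe, 9.74% rose and 7.90% fell in this comparison, with a median of -0.06. The shares were 9.77% and 7.81% in HFD16 against ND (median -0.03), 2.93% and 3.06% in PTFC against HFD24 (0.01), and 0.917% and 1.07% in PTFC against ND (-0.01). Ccbe1, which assists the cleavage that activates VEGF-C, was 1.34 ± 0.27 higher (limma adjusted p = 0.00511). Dusp6, a phosphatase that limits ERK signalling, was 1.24 ± 0.25 higher (0.00605) and Plcg2, a phospholipase used mainly by blood cells, 1.56 ± 0.35 higher (0.00909). Hspb1, a small heat shock protein phosphorylated downstream of VEGFR-2, fell by 1.12 ± 0.31 in HFD24 against ND (0.0267) and fell by 2.16 ± 0.31 in HFD16 against ND (0.00172). In HFD16 against ND 4 of the 18 rose and 3 fell, with Ccbe1 at 0.95 (0.0291). By limma none of the 18 passed in PTFC against HFD24 or in PTFC against ND. At an unadjusted p under 0.05 there were 2 in the first, with 24.3% of all probes, and 6 in the second, with 15.5%. Plcg2 stood at -0.99 in the first (limma adjusted p = 0.0999) and Ccbe1 at 1.08 in the second (0.0587). Adamts3, the protease of the VEGF-C cleavage, stood at 0.37 in PTFC against HFD24 (0.244), and Vegfd, the other ligand of VEGFR-3, at -0.63 in HFD24 against HFD16 (0.328).

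Among 12 class 3 semaphorins and plexins, the other ligands and partners of the neuropilins, 3 rose and 2 fell in HFD24 against ND, 3 rose in HFD16 against ND, and 2 rose and 1 fell in PTFC against HFD24. Plxnd1, an endothelial plexin, was 1.09 ± 0.24 higher in HFD24 than in ND (limma adjusted p = 0.00851) and fell by 1.12 ± 0.24 in PTFC against HFD24 (0.0245). Sema3f, a ligand of NRP2, fell by 0.56 ± 0.18 in HFD24 against ND (0.0477) and was 0.76 ± 0.18 higher in PTFC than in HFD24 (0.0323). Sema3e, the ligand of plexin D1, fell by 0.66 in HFD24 against ND (0.0179), and Sema3d was 1.03 higher (0.029), with its other probe at -0.46 (0.154). By limma none of the 12 passed in PTFC against ND, with 1 at an unadjusted p under 0.05, as 15.5% of all probes were.

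Of 8 angiopoietin and Tie genes, 3 rose and 1 fell in HFD24 against ND. Tek, the angiopoietin receptor, was 1.18 ± 0.32 higher (limma adjusted p = 0.023), its relative Tie1 0.67 higher (0.0462) and Svep1, a matrix protein needed for lymphatic vessels, 0.80 higher (0.0184). Angptl4, an inhibitor of lipoprotein lipase, fell by 0.52 in HFD24 against ND (0.0352) and was the one gene of the 8 called in PTFC against HFD24, at 0.61 higher (0.0401). Of 20 hypoxia response genes and regulators of Vegfa, 2 rose and 2 fell in HFD24 against ND, with a median of 0.03. Adm, which encodes the vascular peptide adrenomedullin, was 1.73 ± 0.24 higher (0.00086) and Ankrd37 1.17 higher (0.0108), while Ppargc1a, a co-activator that can induce Vegfa, fell by 1.40 ± 0.25 (0.00289) and the hypoxia target Egln3 fell by 0.92 (0.00908). With the extract, Ankrd37 fell by 1.04 against HFD24 (0.0412). Against ND, Adm was 1.33 higher in PTFC (0.0164) and Ppargc1a fell by 1.24 (0.0285).

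Marker genes of the cell types that carry these receptors were measured on the same arrays. Sinusoidal endothelial markers rose in 9 and fell in 1 of 17 in HFD24 against ND (median 0.71) and rose in 4 of 17 in PTFC against ND (median 0.70). Stab2 was 1.04 ± 0.18 higher in HFD24 than in ND (limma adjusted p = 0.00241) and 0.97 higher in PTFC than in ND (0.0196), and Cd36, a fatty acid transporter that hepatocytes and macrophages share, was the one that fell (-1.09, 0.00269), with its other probe at 0.67 (0.121). Of 19 pan-endothelial markers 6 rose in HFD24 against ND (median 0.54), with Cdh5, the endothelial cadherin, at 1.25 ± 0.21 (0.00215). In PTFC against HFD24 none of the 19 passed by limma, and 1 of the 17 did (Cd36, 1.00 higher, 0.0187). Of the 19, 2 had an unadjusted p under 0.05 there, as 24.3% of all probes had. In HFD16 against ND the counts were 3 higher and 1 lower of 17, and 5 higher of 19. The summed intensity of the 17 sinusoidal genes was 85360 to 95498 in PTFC, 79096 to 103428 in HFD24, 67490 to 85248 in HFD16 and 57233 to 67556 in ND. That of the 19 pan-endothelial genes was 123894 to 130159 in PTFC, 118244 to 153543 in HFD24, 113055 to 157312 in HFD16 and 95897 to 120768 in ND.

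Of 9 lymphatic markers with a probe, 2 rose in HFD24 against ND: Itga9 (1.49, limma adjusted p = 0.00225), an integrin of lymphatic valves, and Fgl2 (2.80, 0.00406), which macrophages express too. Of the defining lymphatic genes, Pdpn lay at or above the level of 39.1% of probes and Mmrn1 of 50.8%. Their group means were 7.11 and 8.22 in PTFC, 7.46 and 8.52 in HFD24, 8.26 and 8.55 in HFD16 and 6.81 and 8.54 in ND. Pdpn, which encodes podoplanin, rose in HFD16 against ND (1.45, 0.0177). Prox1 and Reln were bright in every group, and hepatocytes express the one and stellate cells the other. The summed intensity of the 9 genes was 30014 to 39383 in PTFC, 29979 to 40859 in HFD24, 25970 to 40897 in HFD16 and 19249 to 22224 in ND. Bright genes weigh most in this sum. As deposited over the 12 arrays, Reln ranged from 8160 to 27334 and Prox1 from 3024 to 7865. Pdpn, at 101 to 316, and Mmrn1, at 238 to 463, add little to it. No member of any marker list was at 0 on an array. The hepatocyte genes Alb, Apoa1 and Hnf4a each lay at or above the level of at least 99.4% of probes over the 12 arrays, and Stab1, Stab2 and Clec4g of the sinusoidal endothelium at or above 87.1%.

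Genes of macrophages, a cell type that can carry LYVE-1 and make VEGF-C, were higher against ND, as Vegfc and Lyve1 were. Of 18, 17 rose in HFD24 against ND (median 2.43), 11 in HFD16 (1.62) and 6 in PTFC against ND (1.33), and 1, Cx3cr1, fell in PTFC against HFD24 (-1.75 ± 0.44, limma adjusted p = 0.0376). The list's median there was -0.90, while Lyve1 stood at -0.07. Their summed intensity was 115682 to 145502 in PTFC, 182869 to 280428 in HFD24, 69102 to 277025 in HFD16 and 29557 to 68626 in ND. HFD16 replicate 1 was the lowest HFD16 array for the mean of the macrophage, stellate cell and lymphatic lists and for Vegfc and Lyve1. In HFD24, replicate 3 had the lowest macrophage mean (12.14), the lowest sinusoidal mean (11.61) and the lowest Lyve1 (10.03), but the highest Vegfc (10.25). The highest macrophage mean there was that of replicate 2 (12.70), and the highest Lyve1 that of replicate 1 (11.29). Of 16 stellate cell and matrix genes, 11 rose and 1 fell in HFD24 against ND (median 1.43) and 4 fell in PTFC against HFD24 (median -0.43), among them Pdgfrb, the receptor of pericytes and stellate cells, at -1.50 ± 0.28 (0.0182). Their summed intensity was 92626 to 110504 in PTFC, 103049 to 122113 in HFD24, 87365 to 112968 in HFD16 and 53515 to 77308 in ND. Hepatocyte genes rose in 0 and fell in 2 of 12 in HFD24 against ND by limma, and bile duct genes rose in 0 and fell in 2 of 6. An unadjusted p under 0.05 gave 0 higher and 3 lower of the 12, and 0 higher and 2 lower of the 6. Over all probes that share was 31.5%. With the scaling step as a covariate, the genes of the 7 cell type lists that passed against ND in HFD24 were Stab2, 4 stellate cell and matrix genes and the bile duct gene Cldn7, which also passed in HFD16, and none passed in PTFC against ND. The medians against ND in HFD24 were then 1.80 for macrophages, 0.55 for sinusoidal and 0.40 for pan-endothelial genes. The part of these cell types in the differences of Vegfc, Lyve1 and the neuropilins was not tested.

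**Figure D3:**
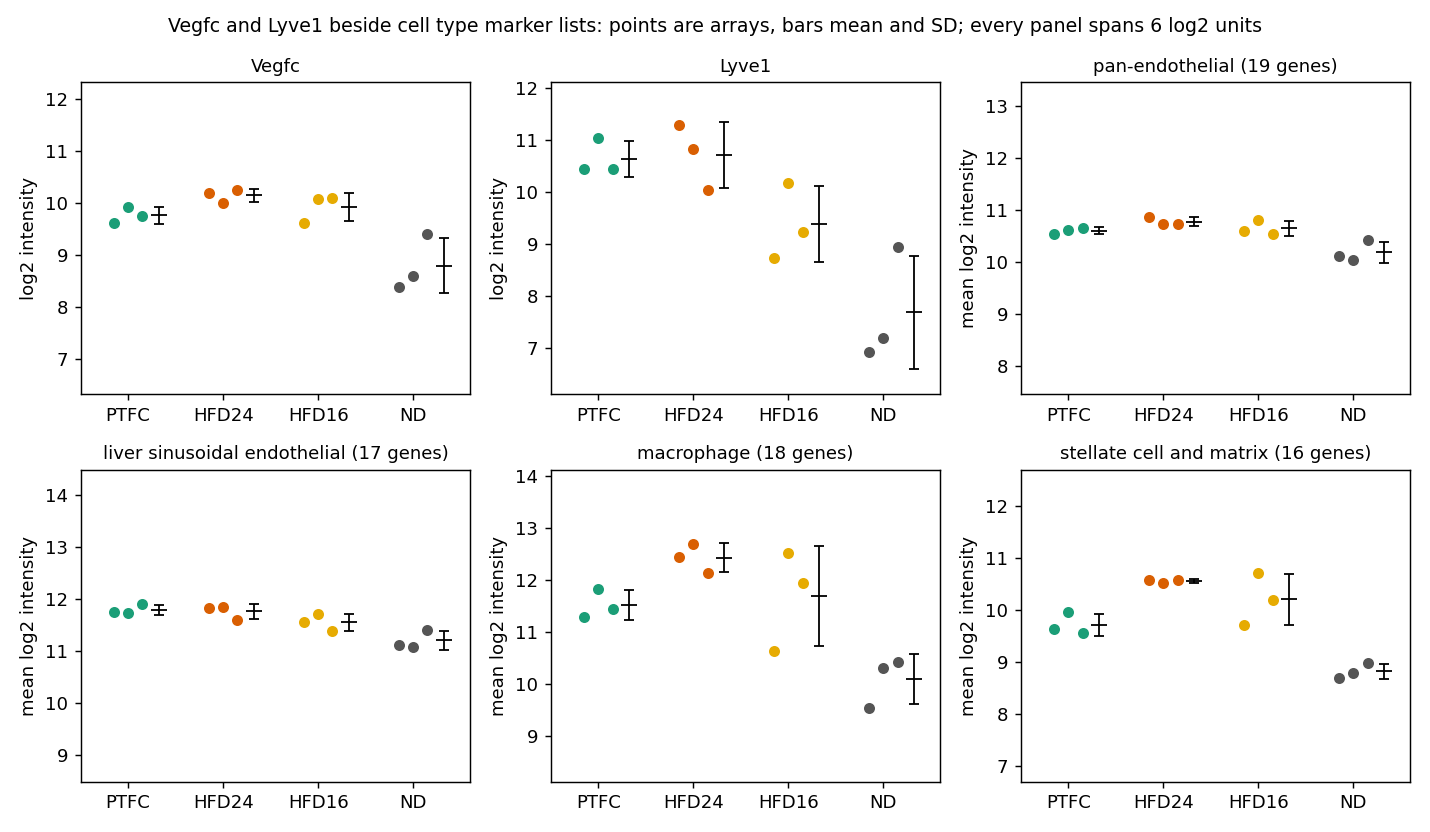
Normalized log2 intensity of Vegfc and Lyve1 on each array beside the mean log2 intensity of 4 marker lists, with groups PTFC, HFD24, HFD16 and ND from left to right, points for arrays and bars for mean ± SD. Every panel spans the same number of log2 units. Lyve1 and the macrophage list span the most, and the endothelial lists the least.

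Across the 12 arrays, the genes whose brightest probe followed Vegfc most closely among 19083 others were Anxa1 (Pearson r = 0.985), Ncs1 (0.979), Map3k8 (0.976), Kctd12 (0.974) and Pmp22 (0.971). Kdr was followed most closely by Esam (0.950), an endothelial junction protein, Aqp1 (0.913), a water channel of endothelium, Arhgef7 (0.879), Npffr1 (0.843) and Amph (0.836). For Lyve1 these were Jdp2 (0.955), Rad51d (0.951), Adm (0.948), Acer2 (0.946) and Fcgr2b (0.935), an Fc receptor in the sinusoidal list. In HFD24 against ND this Fcgr2b probe stood at 1.62 (limma adjusted p = 0.00683). Its other probes stood at 1.06 (0.0219) and -0.0039 (0.998). Anxa1, which encodes annexin A1, was 2.65 higher in HFD24 than in ND (limma adjusted p = 0.000669), against 1.35 for Vegfc. Among the members, Vegfc and Lyve1 had the highest r over the 12 arrays, 0.865, and 0.785 after the group means were removed, where Vegfc and Flt1 had the highest, 0.816. Vegfc and Flt4 had -0.589 and -0.778. Within groups, Vegfc, Lyve1 and Flt1 each varied most in ND, with SDs of 0.53, 1.09 and 0.64, and ND replicate 3 was the highest ND array for each. The correlations describe 12 arrays that share their groups and carry no test.

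**Figure D4:**
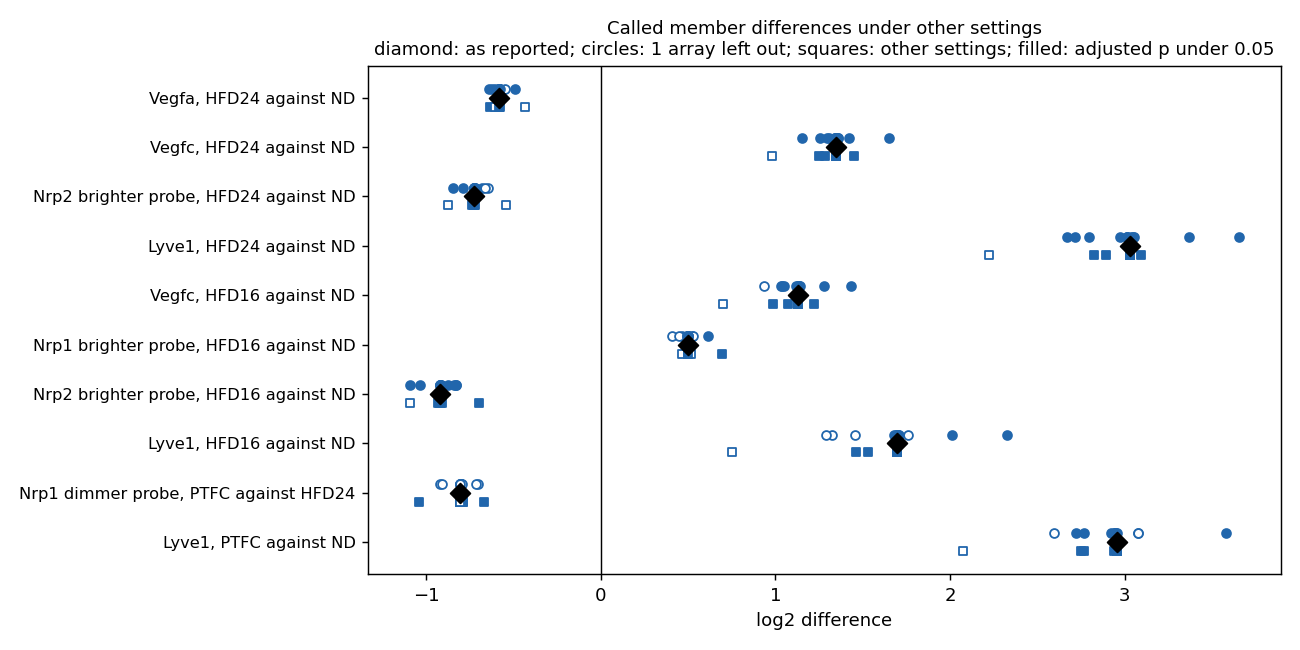
The 10 differences that passed (diamonds, log2, horizontal axis) recomputed with 1 array left out (circles) and under the other settings (squares), filled where the adjusted p stayed under 0.05 and open where it did not. All keep their sign, and Vegfc and Lyve1 in HFD24 against ND and Nrp2 in HFD16 against ND each lose the call under 1 setting, the scaling step as a covariate.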

How the data were processed

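Per the labels' protocols, Trizol was used for extraction, and Cy5 was coupled to amino-allyl aRNA. The authors deposited linear intensity values of 26423 probes on each of 12 arrays. The sources used here do not give their background subtraction, array scaling or averaging of spots. Symbols came from the platform table. It named 21876 probes, 21825 of them with a symbol in the RefSeq gene table (GRCm38.p6), and left 4547 unnamed here. Probe sequences were not used here. Of 317076 values, 291 were below 0 and were set to 0. On every array nearly all values were whole multiples of one step (tolerance 0.02). After log2(intensity + 1) and quantile normalization, every probe was fitted over the 12 arrays in R 4.3.3 by limma 3.58.1 (lmFit and contrasts.fit, then eBayes with its variance trend), two-sided, with Benjamini-Hochberg adjustment over all probes, a threshold of 0.05 and no replicate block. The fit was tested on simulated data. Single values of 3 against 3 arrays used an exact permutation test. A list gene was taken at its probe with the highest mean, every member at each probe.

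The alternatives were other normalizations, pseudocount 32, a filter on the dimmest 25% of probes, 1 probe per gene, only the groups compared, a replicate block, the scaling step as a covariate, no variance trend and each array left out. Within-array ratios were also taken from normalized values. The rule for naming took each member, up to 4 genes of a list with the smallest p in a comparison, the 5 genes most like Vegfc, Kdr and Lyve1, and defining markers of cell types; other list genes are counted. The 11 lists held 165 entries, 155 with a probe. Members and lists were chosen with earlier results of these data known. The number of arrays limits the precision. Promoter sequences, for 9 of 10 members, are those of RefSeq (GRCm38.p6).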

Additional observations from a re-analysis of the deposited data

How the results depend on the processing

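Of 1245 values of the 60 member differences under other settings, 1138 kept direction and side of the threshold, 42 lost a call, 11 gained one and 54 changed sign, all of the last among differences not called. The cause of each change was not tested. The scaling step as a covariate left 0 member probes past the test in HFD24 against ND, HFD16 against ND and PTFC against ND, with 343, 59 and 25 of all probes, where 4348, 4316 and 463 passed without it. In HFD16 against ND 2 member probes passed with only those groups in the fit. In PTFC against HFD24 3 passed with median centring, and 0 with 1 probe per gene, the replicate block or no variance trend. In PTFC against ND 2 passed on the deposited scale and with dim probes left out. Of all probes in HFD24 against HFD16, 2 passed on the deposited scale, 2 with median centring, 0 with only those groups (limma) and 3 without the trend. In PTFC against HFD24 3101 passed on the deposited scale and 611 with the replicate block, and in PTFC against ND 255 with median centring and 289 with the replicate block. Same-numbered arrays of different groups deviated together at r from -0.287 to 0.140 (median -0.055, 3 of 18 pairs over 0.1). With 3 arrays per group, these values cannot tell whether such arrays share more than a number. The block changed no other count of calls by over 1.5 times.

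Leaving out each array gave 2 to 6 member probes and 1981 to 6486 of all probes in HFD24 against ND, 2 to 4 and 1436 to 5896 in HFD16 against ND, 3 to 11 of all probes in HFD24 against HFD16, 0 to 1 and 8 to 2728 in PTFC against HFD24, and 0 to 2 and 56 to 662 in PTFC against ND. Among uncalled differences that changed sign, it gave Flt1 -0.21 to 0.39 (HFD24 against ND), -0.19 to 0.41 (HFD16 against ND), -0.18 to 0.10 (HFD24 against HFD16), -0.16 to 0.12 (PTFC against HFD24) and -0.25 to 0.35 (PTFC against ND). Vegfb ran from -0.034 to 0.22 (HFD24 against ND), -0.10 to 0.21 (HFD16 against ND) and -0.10 to 0.17 (HFD24 against HFD16). The dimmer Nrp2 probe ran from -0.25 to 0.23, -0.45 to 0.043 and -0.48 to 0.0045 against ND in HFD24, HFD16 and PTFC. Kdr ran from -0.24 to 0.34 (HFD16 against ND) and -0.15 to 0.43 (PTFC against ND), Lyve1 from -0.42 to 0.21 (PTFC against HFD24), and Pgf from -0.10 to 0.094 and Flt4 from -0.10 to 0.11 (PTFC against ND).

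Changes of sign on the deposited scale were Flt1 at -0.0024, -0.0088, 0.0064, 0.084 and 0.082 (in the order above), Pgf at 0.0057 (HFD24 against HFD16) and 0.15 (PTFC against ND), the dimmer Nrp2 probe at 0.33 and Lyve1 at 0.045 (PTFC against HFD24), and Flt4 at 0.16 (PTFC against ND). With median centring they were Vegfa at 0.0014 (HFD16 against ND) and, in PTFC against HFD24, Vegfa at -0.064 and the brighter Nrp2 probe at -0.16. With the scaling step they were Flt1 at -0.33, -0.37 and 0.038 (HFD24 and HFD16 against ND, HFD24 against HFD16), and Flt4 at 0.13 and the dimmer Nrp1 probe at 0.019 (PTFC against ND). The deposited scale moved the median of all probes to -0.28, -0.30, 0.30 and 0.10 in HFD24 against ND, HFD16 against ND, PTFC against HFD24 and PTFC against ND, and the share of calls that were higher to 35.6%, 28.7%, 92.4% and 67.4%, beside 51.7%, 52.9%, 53.1% and 41.5% as reported. That share was 29.0% with median centring and 20% with the scaling step in PTFC against ND, and 33.9% with the scaling step in HFD16 against ND. The within-array ratios from normalized values and the list counts with the scaling step were chosen after seeing the data.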
